A study of Homo sapiens with 6 samples.

Results

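The genes examined here are 10 known parts and targets of the LIN28/let-7 axis, namely LIN28B, LIN28A, HMGA2, HMGA1, IGF2BP1, IGF2BP2, IGF2BP3, DIS3L2, DICER1 and MYCN, taken by gene symbol out of 16571 symbols in the count table. RNA-seq measured them in A2780, a long-established cell line from a human ovarian carcinoma, in 3 libraries with the pGIPZ-NC control vector and 3 libraries with shUSP39, a short hairpin RNA against the spliceosome protein USP39. Both groups were infected with lentivirus, and the study selected its stable lines with puromycin. The hairpin that each shUSP39 library carried is not named in the labels. The comparison asks how the axis differed when USP39 was knocked down. The 10 genes were named for what is known of the axis and were chosen by someone who already knew their log2 fold changes between these groups, so their values are a description, with no test. Throughout, ± is the SD over the 3 libraries of a group.

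The let-7 microRNAs are short RNAs that pair with the 3' untranslated region (3' UTR) of messenger RNAs and lower their output. LIN28A and LIN28B bind the let-7 precursor and block its maturation, and DIS3L2 is the exonuclease that degrades the precursor once it has been tailed with uridines, whereas DICER1 cuts the precursor into the mature form. HMGA2, the IGF2BP proteins, MYCN and LIN28B itself are known let-7 targets, and several of these genes are active in the embryo, silent in most adult tissues and active again in tumours. The table held messenger RNAs only, so let-7 itself was not measured.

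The let-7 sequences are shown first because one seed defines what the axis can pair with. RefSeq (GRCh38.p14) lists 9 mature family members from 12 loci, and all of them share the seed at bases 2 to 8, given here in capitals.
hsa-let-7a-5p: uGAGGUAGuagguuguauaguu
hsa-let-7d-5p: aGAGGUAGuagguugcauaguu
hsa-let-7g-5p: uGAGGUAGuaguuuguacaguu
hsa-let-7i-5p: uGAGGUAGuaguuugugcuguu
hsa-miR-98-5p: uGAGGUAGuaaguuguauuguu

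LIN28 proteins are known to read a GGAG motif in the loop side of the precursor, so the stretch just before the 3p arm is shown with that motif in capitals.
MIRLET7G: acccgguacaGGAGauaa
MIRLET7A1: cccaccacugGGAGauaa
MIRLET7I: ugcccgcuguGGAGauaa
MIRLET7A3: ugcccugcuaugggauaa
MIR98: gccccaauuagaagauaa
On the RNA strand, GGAG lay between the mature arms in 8 of the 11 let-7 hairpins with both arms listed, and MIRLET7A3, MIRLET7B and MIR98 did not hold these letters there. Of all 739 human hairpins with both arms listed, 8.1% held GGAG between the arms.

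The seed pairs with CTACCTC, and an A after it gives the 8-base match CTACCTCA. Both were searched on the transcript strand in the 3' UTR of the canonical coding transcript (GENCODE release 44, GRCh37), and each 8-base match also counts as a 7-base match. LIN28B, HMGA2 and IGF2BP1 each held 4 matches of at least 7 bases, IGF2BP2, IGF2BP3, LIN28A and HMGA1 each held 1, and DICER1, DIS3L2 and MYCN held none. These are matches of letters only. Other forms of seed match were not searched, so a gene with none may still hold such a form. In all 19484 3' UTRs, 9.515% had a match and 12 had at least 4, and in the 5885 of at least 2000 bases 20.87% had a match. As known let-7 targets were chosen, a high number of matches follows from the choice. The matches of LIN28B and HMGA2, whose log2 fold changes were the lowest of the genes examined here, are written with the match in capitals.
LIN28B, chr6:105526694-105526715, plus strand: tgcaaagtCTACCTCAtgcaag
LIN28B, chr6:105529121-105529141, plus strand: gatagtaaCTACCTCtgagtt
LIN28B, chr6:105529303-105529324, plus strand: gcaaaaggCTACCTCAtagttg
LIN28B, chr6:105530742-105530762, plus strand: ggtgttgaCTACCTCttgaat
HMGA2, chr12:66357085-66357106, plus strand: ttcgatttCTACCTCAgcagca
HMGA2, chr12:66358320-66358340, plus strand: actcaataCTACCTCtgaatg
HMGA2, chr12:66358732-66358752, plus strand: gcaaagacCTACCTCcagact
HMGA2, chr12:66359585-66359605, plus strand: acacactaCTACCTCttaagt

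**Figure D1:**
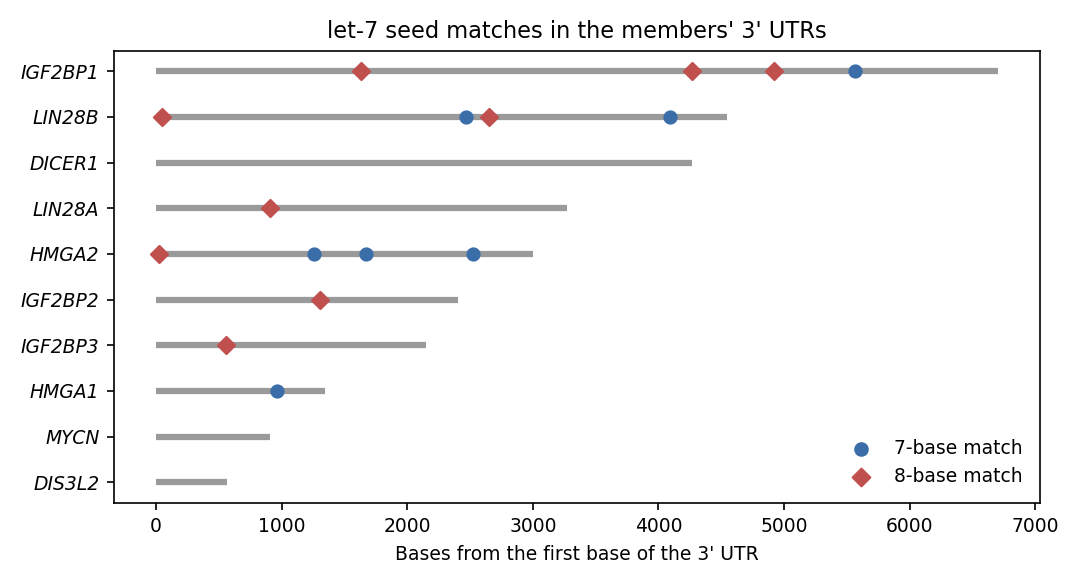
Positions of let-7 seed matches (x axis, bases from the first base of the 3' UTR) in the 10 genes, with each 3' UTR drawn as a grey line to scale, 7-base matches as blue circles and 8-base matches as red diamonds. LIN28B, HMGA2 and IGF2BP1 have 4 matches each, and the first matches of HMGA2 and LIN28B begin at bases 21 and 44.

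Total counts lay between 28294819 and 32939264 per library. Genes with at least 1 count numbered 12662 to 12809 in pGIPZ-NC and 12819 in shUSP39 replicate 1, but 15446 and 14890 in shUSP39 replicates 2 and 3, which touches genes with only a few counts. The labels were not checked against the targeted gene, since USP39 is not analysed here. Of 9 markers of epithelial or ovarian carcinoma cells with values, KRT18 alone exceeded 1 CPM in pGIPZ-NC, and the defining markers PAX8 and EPCAM had at most 6 counts and CDH1 at most 1 count in any library. All 4 fibroblast markers (COL1A1, DCN, LUM and PDGFRB) exceeded 1 CPM there, with a summed level of 12.9 to 15.5 CPM in pGIPZ-NC and 7.72 to 9.09 CPM in shUSP39. The lower sum lay mainly in LUM (means of 4.73 and 0.380 CPM) and DCN (1.13 and 0.0785 CPM), whereas the counts of COL1A1 overlapped between the groups and PDGFRB was at 1.14 and 1.39 CPM. The summed level of the epithelial and ovarian markers was 22.2 to 25.4 CPM in pGIPZ-NC and 32.7 to 39.5 CPM in shUSP39. That sum lay mainly in KRT18 (means of 22.4 and 32.9 CPM), whereas KRT8 was lower in shUSP39 (0.979 and 0.0312 CPM). MUC16 had 5, 1 and 1 counts in pGIPZ-NC and 6, 150 and 71 in shUSP39 replicates 1 to 3. These markers thus did not differ in 1 direction. The part of these differences in the results below was not tested.

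How far each gene is represented in the table sets what its count can show. LIN28A and IGF2BP3 had 1 row for the 1 messenger RNA accession that RefSeq lists, and LIN28B and IGF2BP1 had 1 of 2. HMGA2 had 4 of 5 and DIS3L2 2 of 3. In contrast, HMGA1 had 2 rows of 12 accessions, IGF2BP2 1 of 7, MYCN 1 of 4 and DICER1 3 of 27. Values of these last 4 genes are therefore values of the rows at hand, and the levels of the genes may be higher. To a lesser degree this also holds for LIN28B, IGF2BP1, HMGA2 and DIS3L2, where a shift to an uncounted accession would not be seen. All 10 genes had a row, 8 passed the filter on low counts, and IGF2BP2 and MYCN did not.

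LIN28B showed the largest difference of the 8. Its level in CPM, counts scaled to 1000000 of the normalized library size, was 66.7, 56.4 and 55.0 in pGIPZ-NC replicates 1 to 3 and 5.22, 4.54 and 4.77 in shUSP39 replicates 1 to 3. Every shUSP39 library lay far below every pGIPZ-NC library. The means were 59.4 ± 6.36 CPM and 4.84 ± 0.345 CPM, so 8.15% of the control level was left in the knockdown. The log2 fold change was -3.61 (SE 0.10), 12.2-fold lower, and only 45 of the 10695 tested genes had a lower one. Behind these values stood 1554 to 2126 counts per control library and 139 to 167 per knockdown library. LIN28B occupies chr6:105384491-105531207 on the plus strand of GRCh37, its canonical transcript has 4 exons, and no exon of that transcript overlapped another annotated gene. Fewer cells with LIN28B and less of its RNA per cell cannot be told apart in such bulk libraries.

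LIN28A, the paralog that is typical of pluripotent stem cells, was close to the limit of detection. It had 3, 2 and 13 counts in pGIPZ-NC replicates 1 to 3 and 15, 16 and 13 counts in shUSP39 replicates 1 to 3. The groups overlapped, since pGIPZ-NC replicate 3 reached the level of the knockdown libraries. The log2 fold change of 1.24 had an SE of 0.71 and was 2.55 once pGIPZ-NC replicate 3 was left out and 0.79 once replicate 2 was. LIN28A passed the filter on low counts only through shUSP39, the group where it was high. Without pGIPZ-NC replicate 3 it also passed both limits for a call, and nothing is read from this. Per kilobase of transcript its level in the knockdown was 0.120 CPM, below the 0.889 CPM that was left of LIN28B.

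The other proteins that act on the let-7 precursor differed little. DIS3L2 had 10.3, 11.3 and 12.5 CPM in the control and 11.9, 13.6 and 12.2 CPM in the knockdown libraries, replicates 1 to 3 in order. The groups overlapped and the log2 fold change was 0.14 (SE 0.12). The 2 DIS3L2 accessions shared the counts almost evenly, with NM_152383.4 at 50.6% ± 3.80 in the control and 51.4% ± 4.21 in the knockdown. DICER1 had 10.8, 10.9 and 10.5 CPM in the control and 9.59, 9.12 and 9.63 CPM in the knockdown libraries. Here the groups did not overlap, as was the case in 44.2% of all tested genes (22.5% lower and 21.7% higher in shUSP39), but the gap was small (log2 fold change -0.18, SE 0.12). The log2 fold change of its most abundant accession, NM_177438.2, was -0.04. That accession made up 58.8% ± 2.07 of the DICER1 counts in control and 64.9% ± 4.53 in knockdown libraries, and the groups overlapped.

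HMGA2, an architectural chromatin protein that bends DNA at AT-rich sites, was lower in the knockdown as well. It had 540.0, 517 and 507 CPM in the control and 228, 211 and 207 CPM in the knockdown libraries, replicates 1 to 3 in order. The highest knockdown library was below the lowest control library, and 41.3% of the control level was left. The log2 fold change was -1.27 (SE 0.04), and 223 tested genes had a lower one. The accession NM_003483.4 carried at least 96.3% of the HMGA2 counts in every library. Its share was 98.3% ± 0.0487 in the control and 96.9% ± 0.518 in the knockdown. The other counted accessions had few counts and overlapped between the groups in CPM, so the fall in the summed counts is mainly that of NM_003483.4. Whether the other accessions fell as well was not tested. HMGA1, its close relative, had 2.79, 3.26 and 4.53 CPM in the control and 2.84, 4.999 and 2.77 CPM in the knockdown libraries. The groups overlapped fully, and the log2 fold change of 0.01 (SE 0.25) ran from -0.33 without shUSP39 replicate 2 to 0.22 without pGIPZ-NC replicate 3. An equal level of HMGA1 is thus not shown, and only 2 of its accessions were counted.

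The IGF2BP family binds messenger RNAs and protects them from decay. IGF2BP3 had 200.4, 194 and 191 CPM in the control and 151, 149 and 134 CPM in the knockdown libraries, replicates 1 to 3 in order. The groups did not overlap, and the log2 fold change was -0.43 (SE 0.05), or 74.0% of the control level. Exons of IGF2BP3 overlap MALSU1 on the other strand, exons of IGF2BP1, DIS3L2 and MYCN likewise overlap an antisense gene, and use of strand in the counting is not stated, so reads of such partners cannot be told apart. Exons of IGF2BP1 also overlap AC105030.1 on the same strand, which strand could not separate. IGF2BP1 had 58.8, 61.8 and 64.6 CPM in the control and 61.9, 53.9 and 61.3 CPM in the knockdown libraries. These ranges overlapped, and the log2 fold change was -0.06 (SE 0.07). The IGF2BP1 3' UTR holds 4 let-7 matches, as many as LIN28B and HMGA2, and the part of let-7 in the levels of these genes was not tested. IGF2BP2 had 1, 0 and 0 counts in pGIPZ-NC and 4, 4 and 7 counts in shUSP39 from its 1 row, NM_001291869.2. The IGF2BP2 mean in shUSP39 was 1.68-fold above a floor of 3 counts per control library. Counting error in the shUSP39 libraries is not in this ratio, so it is no lower bound. In shUSP39 replicates 2 and 3 more genes had a count at all, which touches low rows such as this one. The 6 other accessions of the gene are not in this value. MYCN, a transcription factor of neural tumours, had 1 count in shUSP39 replicate 2 and 0 in the other 5 libraries from the row NM_001293228.1.

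**Figure D2:**
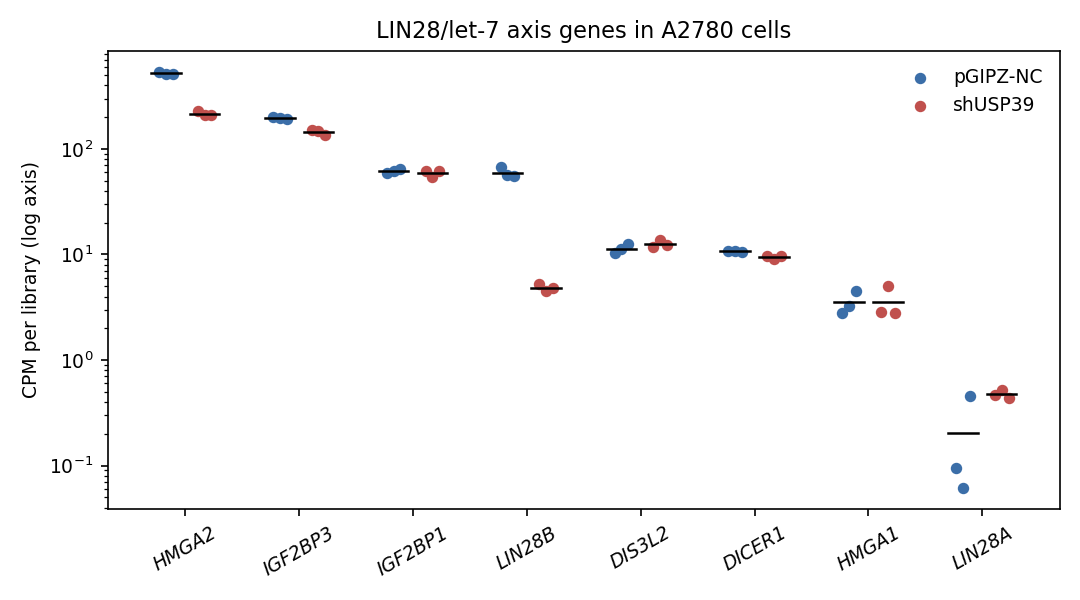
CPM per library (y axis, log scale) of the 8 genes that passed the filter, with pGIPZ-NC in blue, shUSP39 in red, 1 point per library and a bar at the mean of 3. LIN28B lies at 55.0 to 66.7 CPM in the control libraries and at 4.54 to 5.22 CPM in the knockdown libraries, HMGA2, IGF2BP3 and DICER1 are lower without overlap, and IGF2BP1, DIS3L2, HMGA1 and LIN28A overlapped.

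Levels were compared between genes only per kilobase of the canonical transcript. In pGIPZ-NC the order was HMGA2 with 127 ± 4.08, IGF2BP3 with 45.7 ± 1.10, LIN28B with 10.9 ± 1.17, IGF2BP1 with 7.02 ± 0.328, DIS3L2 with 3.38 ± 0.339, HMGA1 with 1.84 ± 0.469, DICER1 with 1.03 ± 0.0184 and LIN28A with 0.0517 ± 0.0557 CPM per kilobase. Each neighbour in that order differed by more than the sum of both SDs. In shUSP39, LIN28B stood behind IGF2BP1, DIS3L2 and HMGA1 at 0.889 ± 0.0633 CPM per kilobase, where it did not differ beyond the spread from DICER1 with 0.910 ± 0.0278. The other genes kept their order. HMGA1 and DICER1 may stand too low in it, since few of their accessions were counted.

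In the fit over all 10695 tested genes with edgeR's quasi-likelihood test, 728 genes (6.81%) passed a Benjamini-Hochberg adjusted p of 0.05 and a 2-fold limit, of which 244 (2.28%) were lower in shUSP39. LIN28B and HMGA2 were among the latter, 2 of the 8 tested members. At the adjusted p alone 3598 genes (33.6%) passed, and IGF2BP3 joined them, 3 of 8. Since the list was drawn up with this comparison known, nothing is read from these counts. The median log2 fold change was -0.12 over the 8 members and 0.01 over all tested genes.

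**Figure D3:**
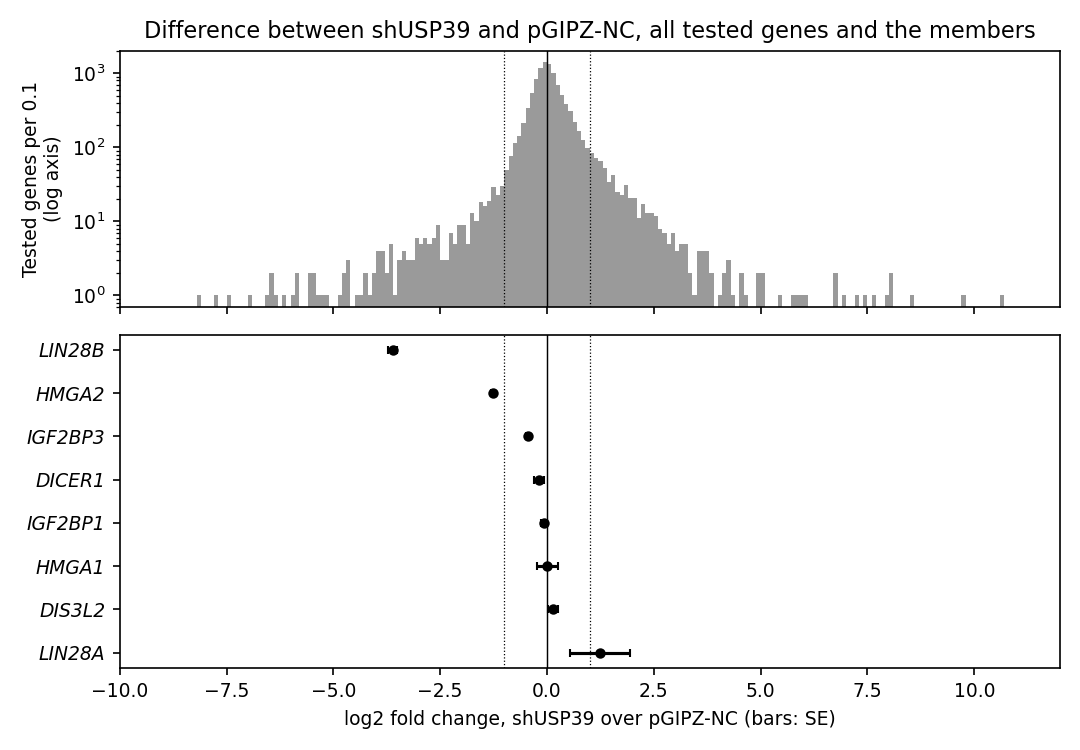
Upper panel, number of tested genes (log axis) per bin of 0.1 of the log2 fold change, shUSP39 over pGIPZ-NC. Lower panel, the 8 tested members on the same x axis with their SE as bars, and dotted lines at the 2-fold limits. LIN28B at -3.61 and HMGA2 at -1.27 lie beyond the lower limit, and LIN28A at 1.24 has an SE of 0.71.

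Other genes of the pathway were then followed in 3 lists that leave out the members. These lists were chosen with earlier results of these data known, so nothing is read from their counts of passing genes. The first holds proteins that process microRNA precursors or silence targets, of which 12 of 17 were tested. DROSHA, AGO2 and RAN fell, none of the 12 rose, and the other 9 did not pass, so 25.0% passed against 33.6% of all tested genes. DROSHA, the nuclear enzyme that frees the hairpin from the primary transcript, fell from 25.0, 24.5 and 25.2 CPM in the control to 19.2, 18.2 and 16.5 CPM in the knockdown libraries (log2 fold change -0.47, SE 0.09, edgeR adjusted p 0.000192). AGO2, which holds the mature microRNA and can cleave its target, fell from 22.4 ± 1.69 to 15.9 ± 2.22 CPM (log2 fold change -0.50, SE 0.11, edgeR adjusted p 0.000519). RAN, the GTPase that exports hairpins together with exportin 5, fell by 0.18 on the log2 scale (SE 0.04, edgeR adjusted p 0.00108). None of these was beyond 2-fold. TUT4, which adds the uridine tail when LIN28 is bound, had 2.18 ± 0.672 CPM in the control and 1.92 ± 0.200 CPM in the knockdown libraries and did not pass (adjusted p 0.675). TRIM71, a let-7 target of stem cells, and TNRC6A had fewer than 10 counts in every library. How many of their accessions were counted was not checked, so absence of these genes is not shown.

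The second list holds known let-7 targets, of which 30 of 35 were tested. Of these, 12 passed the adjusted p (40.0%, against 33.6% of all tested genes), with 5 higher and 7 lower, and the median log2 fold change was 0.03. The other 18 did not pass. Past the 2-fold limit as well were 7 of the 30, 3 higher and 4 lower, where 6.81% of all tested genes were called, 4.53% higher and 2.28% lower. FIGN and IRS2, both with low counts as given below, are among these 7, and both passed the filter only through the group where they were high. As the list was chosen with earlier results known, these shares are a description only.

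The largest fall was in CCND2, a D-type cyclin that drives entry into the cell cycle. It had 671, 661 and 639 CPM in the control and 128, 122 and 123 CPM in the knockdown libraries (log2 fold change -2.40, SE 0.04, edgeR adjusted p 8.18e-26). COL1A2, a chain of type I collagen that fibroblasts also express, fell from 1160 ± 36.1 to 459 ± 11.1 CPM. The part in this of the fibroblast markers given above, which did not differ in 1 direction, was not tested. PRTG, a cell surface receptor of the early embryo, had 127, 128 and 127 CPM in the control and 50.0, 53.3 and 46.5 CPM in the knockdown libraries (log2 fold change -1.35, SE 0.06). FIGN had 14, 20 and 33 counts in the control and 1, 13 and 5 in the knockdown libraries. It passed the filter only through the control group, where it was high. FIGN was not tested under a filter of at least 10 counts in every library. It passed with -1.81 (SE 0.68, edgeR adjusted p 0.0418) at no more than 1.17 CPM in any library, stood at -2.86 without shUSP39 replicate 2, and did not pass without pGIPZ-NC replicates 2 or 3 or shUSP39 replicates 1 or 3 (adjusted p 0.0880, 0.278, 0.159 and 0.123). NRAS, a small GTPase of growth signalling, fell by 0.35 on the log2 scale (SE 0.05, edgeR adjusted p 8.27e-07).

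In contrast, ONECUT2, a homeobox transcription factor, rose. It had 1.35, 1.08 and 1.91 CPM in the control and 9.12, 8.46 and 8.45 CPM in the knockdown libraries (log2 fold change 2.59, SE 0.21, edgeR adjusted p 1.17e-10). IRS2, an adaptor of the insulin receptor, rose by 3.04 on the log2 scale (SE 0.60, edgeR adjusted p 0.000234) from 0.140 ± 0.129 to 1.19 ± 0.186 CPM, and by 4.07 without pGIPZ-NC replicate 1. It had 9, 1 and 3 counts in the control and 32, 42 and 35 in the knockdown libraries, so it passed the filter only through the group where it was high, and it was not tested under a filter of at least 10 counts in every library. IGDCC3 rose by 1.66 (SE 0.29, edgeR adjusted p 0.000163), and by 2.27 without pGIPZ-NC replicate 3. MYC, a let-7 target that is also known to activate LIN28B transcription, rose from 513 ± 14.1 to 697 ± 16.0 CPM. A link between MYC and the level of LIN28B was not tested. ARID3A rose by 0.15 (adjusted p 0.0245). It did not pass without pGIPZ-NC replicates 1 or 3 or shUSP39 replicates 2 or 3 (adjusted p 0.0747 to 0.0801). RRM2 fell by 0.29 (adjusted p 0.0464), and this call was lost without any 1 of the 6 libraries, with the adjusted p between 0.0555 and 0.121 in edgeR's test.

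The third list holds fetal and pluripotency genes, of which 2 of 16 were tested. Both rose past the 2-fold limit, as did 4.53% of all tested genes, and nothing is read from a count of 2. SALL4, a zinc finger factor of stem cells and germ cell tumours, had 26.6, 26.4 and 27.6 CPM in the control and 58.3, 61.2 and 56.2 CPM in the knockdown libraries (log2 fold change 1.13, SE 0.07, edgeR adjusted p 9.81e-13). TPBG, the oncofetal surface protein 5T4, rose from 3.54 ± 0.233 to 8.78 ± 0.805 CPM (log2 fold change 1.31, SE 0.16, edgeR adjusted p 3.75e-07). Under 10 counts in every library were 9 others, AFP, IGF2, SOX2 and NANOG among them. IGF2, the growth factor after which the IGF2BP proteins are named, was at 0 counts in all control libraries and at 2 in all knockdown libraries, which is under the floor of 3 counts.

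**Figure D4:**
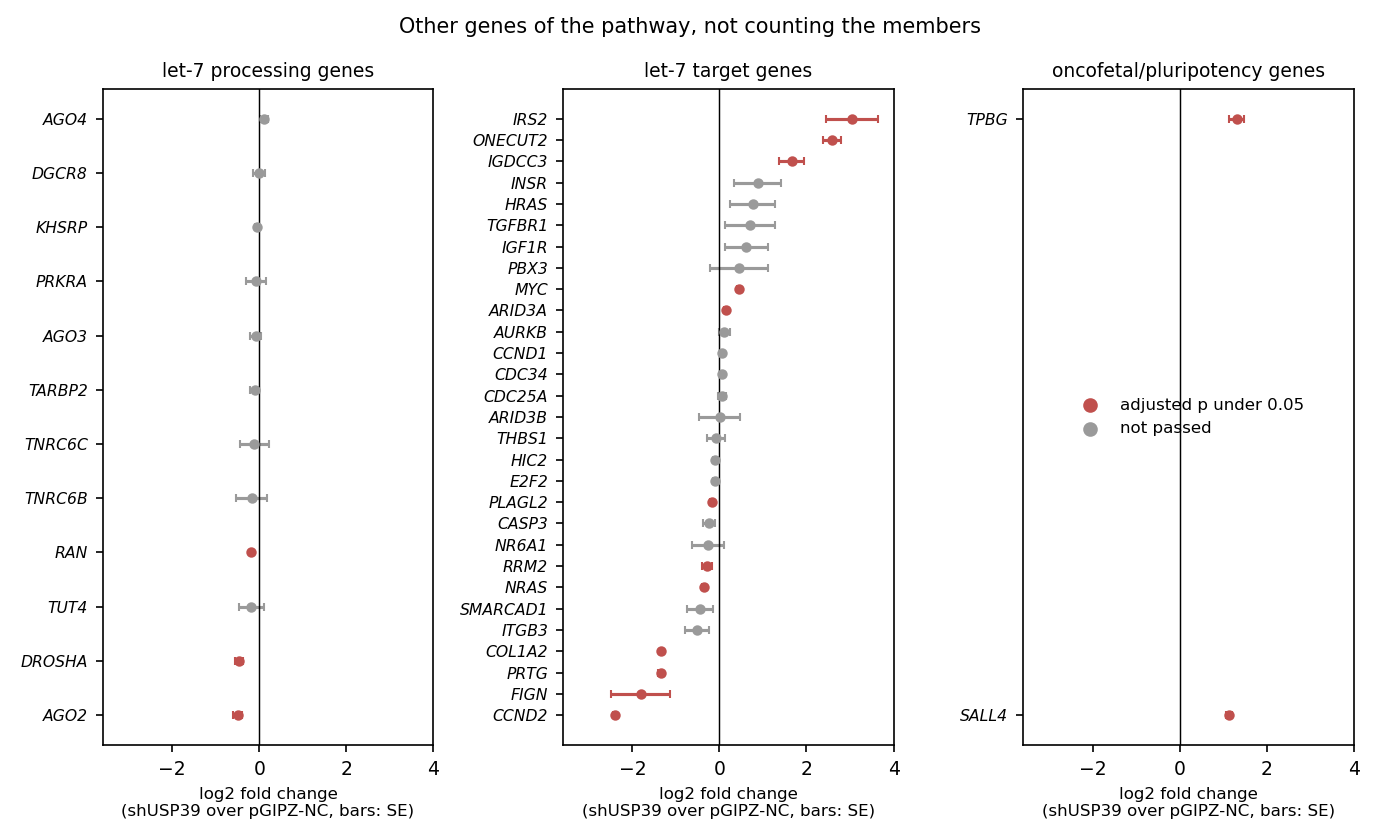
Log2 fold change (x axis, shUSP39 over pGIPZ-NC, bars are SE) of the tested genes of the 3 lists, with genes at an adjusted p under 0.05 in red and the others in grey (1 target gene that did not pass is not shown). In the processing list 3 genes fell, in the target list 5 rose and 7 fell, and in the oncofetal list both tested genes rose.

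The let-7 matches were last set beside the differences of all other tested genes with a 3' UTR. The median log2 fold change was 0.01 in 9037 genes without a match, 0.01 in 991 with 1 match, 0.02 in 109 with 2 and 0.00 in 23 with at least 3. At an adjusted p under 0.05 in edgeR's test, 17.8% of genes without a match were lower and 16.2% higher, against 16.6% and 15.3% of genes with 1 match and 17.4% and 22.0% of genes with 2. Of the 23 genes, 5 were lower and 3 higher. The medians of these classes thus lay within 0.02 of each other. Single genes with at least 3 matches lay on both sides, such as FIGN at -1.81 and IGDCC3 at 1.66. FIGN, which is among the 5 lower genes, had low counts and did not pass with some single libraries left out, as given above. The 3' UTR was longer in classes with more matches, with medians of 1137 bases without a match and 6941 bases with at least 3.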

How the data were processed

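The authors deposited 1 table of raw read counts per RefSeq messenger RNA accession, 1 column per library. HISAT2, Cufflinks and hg19 are named in the submitters' processing notes without roles, and the counter is not given in the sources used here. Reads shared by several accessions may be missing. The authors' means, fold changes and p-values were not used. Counts were summed per symbol (46 date-like symbols were replaced through the accession).

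edgeR 4.0.16 in R 4.3.3 was run on all 6 libraries with filterByExpr, TMM factors and a robust quasi-likelihood fit whose single term was the group. Depth was 28294819 to 32939264 counts per library, and a floor of 3 counts covers counting error only. The SE is the absolute log2 fold change divided by the square root of F. The fit was also run on simulated data, with means, library sizes and dispersion taken from the real libraries.

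The 10 members and the lists were chosen with earlier results of these data known. Named were all members and, per list, up to 5 genes with the largest rise and fall at an adjusted p under 0.05, those past 2-fold, and up to 4 with under 10 counts. TUT4, RRM2, KHSRP, CCND1 and E2F2 were named after their values were seen. List genes absent from the table were not analysed here, and 1 target gene counted in its list is not reported here. Libraries are biological replicates per the series description.

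DESeq2 1.42.0, other scalings and filters, the most abundant accession, the replicate block and each library left out were the alternatives. Same-numbered libraries did not deviate together (r between 0.01 and 0.09), so the numbers were not taken as pairs. Sequences are from RefSeq (GRCh38.p14) and GENCODE release 44 (GRCh37).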

Additional observations from a re-analysis of the deposited data

How the results depend on the processing

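The 728 calls varied by less than 1.5 times under the alternatives other than at least 10 counts in every library (471), which tests fewer genes, and ran from 677 to 836 with 1 library left out. With the replicate block 745 genes were called, and 3, 4, 14 and 2 genes of the members, processing, target and oncofetal lists passed the adjusted p, with KHSRP, CCND1 and E2F2 gained. The number of target genes past it ran from 9 to 10 with 1 library left out. With upper-quartile scaling, which moved the median of all genes from 0.01 to 0.05, 58.05% of significant genes were the higher ones (47.97% with TMM), and the targets split into 6 higher and 6 lower. Across the 13 alternatives the log2 fold change was between -3.68 and -3.52 in LIN28B, between -1.32 and -1.23 in HMGA2 and between -0.47 and -0.38 in IGF2BP3. HMGA1 ran from -0.33 to 0.22. LIN28A dropped out under the 10-count filter and lay between 0.79 and 2.55 in the other 12.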
